A study of Mus musculus with 36 samples.

Results

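The nuclear genes of the mitochondrial respiratory chain were examined in RNA sequencing of E18.5 mouse intestines and of mouse embryonic fibroblasts (MEFs). The members are the protein-coding genes on autosomes and the X chromosome whose GENCODE mouse symbol starts with Nduf, Uqcr, Cox4, Cox5, Cox6, Cox7, Cox8 or Atp5, together with Sdha, Sdhb, Sdhc and Sdhd. The rule names 94 genes in the GENCODE M21 annotation of GRCm38, and 93 of them are among the 52636 genes of the deposited count files. By role, 36 belong to complex I, 4 to complex II, 8 to complex III, 20 to complex IV and 16 to complex V. A further 8 are assembly factors of complex I (Ndufaf1 to Ndufaf8), and Atp5s encodes a factor of the ATP synthase that is not a subunit. Ndufa4 and Ndufa4l2 carry complex I names but were counted in complex IV.

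Each of the 12 genotype groups had 3 libraries, labelled as biological replicates, from untreated C57BL/6N embryos. The D387A set of intestines held Mlkl-/- controls, Casp8 1xDA/1xDA embryos with no deletion, and embryos with the same knock-in that were also Cflar-/- Mlkl-/-. In 3 further groups this last genotype was combined with Casp1-/-, with Casp1-/- and Ifnar-/-, or with Casp1-/- and Fadd-/-. In the C362A set, beside Mlkl-/- controls, embryos homozygous for the Casp8 C362A allele lacked either Mlkl alone, Mlkl and Casp1, or Mlkl and Cflar. MEFs were prepared at E14.5 from Mlkl-/- embryos and from Casp8 1xDA/1xDA embryos lacking Cflar and Mlkl. The 1xDA allele carries the D387A change, which removes a site of caspase-8 self-cleavage, C362A inactivates the protease, and Cflar encodes cFLIP, the partner of caspase-8. Every group but Casp8 1xDA/1xDA lacked Mlkl, the effector of necroptosis, so the Mlkl-/- groups are controls for the knock-in and for the other deletions and not wild-type tissue. The deletions were constitutive, each library came from whole intestine, and the Casp1-/- groups had no matching Casp1-/- Mlkl-/- control. In the D387A set, the sample titles carry 1 number for the controls and for the group lacking only Cflar and Mlkl with the knock-in, and another for each of the other groups, so that for those groups genotype and the number cannot be told apart. Below, groups are named by the changed genes alone, as in 1xDA Cflar Mlkl.

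Electrons from NADH and succinate enter the chain at complexes I and II, pass through ubiquinone to complex III and through cytochrome c to complex IV, and the proton gradient they build drives the ATP synthase, complex V. Most subunits are encoded in the nucleus and are assembled with a small number of subunits encoded by mitochondrial DNA. Absorptive enterocytes of the late fetal intestine are rich in mitochondria, and some complex IV subunits exist as paired isoforms, one common and one favoured in particular tissues such as muscle or lung.

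Most members were strongly transcribed in the intestine and less so in MEFs. Levels are given as RPKM, the reads of a gene scaled to its width and to library size, computed from the deposited counts with TMM-scaled library sizes within each set. In Mlkl intestines of the D387A set, 53 members had a mean of 100 RPKM or more and the median member was at 127 RPKM. The corresponding values were 51 members and 118 RPKM in the C362A set, and 9 members and 34.4 RPKM in MEFs. Because of the separate scaling, and because the study's methods name another library kit for the MEFs, levels of intestines and MEFs are set side by side without a test. Cox4i1, the common isoform of a complex IV subunit, was the highest in intestines at 1222 and 1239 RPKM, and Atp5b, the catalytic beta subunit of the ATP synthase, was the highest in MEFs at 609 RPKM. The members not tested in intestines for lack of reads were Cox6a2, Cox7b2, Cox8b, Cox8c, Atp5g2 and Atp5l, with at most 11 reads in any library of the D387A set and 13 in the C362A set. Of these only Cox6a2 was tested in MEFs. The tests therefore covered 87 members in intestines and 88 in MEFs. Some subunits were counted far below the median member, among them Atp5g2, Atp5l and Cox7c, and in complex I Ndufs5, Ndufb4 and Ndufab1, at 4.04, 6.04 and 6.62 RPKM in Mlkl intestines of the D387A set. The counts hold uniquely aligned reads, and whether reads of these genes were lost to close copies was not tested. The spans of 39 members overlap another gene, and because the treatment of strand in counting is not given in the sources used here, reads of such pairs may be mixed.

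Libraries held 17943524 to 27721024 reads on genes in the D387A set, 21757868 to 31052238 in the C362A set and 20927014 to 32307629 in MEFs. Casp1 was at 0 to 0.212 CPM in the intestines labelled as lacking it and at 42.6 to 124 CPM in the others, Fadd at 0.659 to 1.01 CPM against 25.5 to 50.5 CPM, and Ifnar1 at 33.2 to 37.9 CPM against 76.1 to 103 CPM. Cflar was lower without overlap where it was labelled as lacking in the C362A set, at 39.7 to 44.4 CPM against 53.3 to 72.5 CPM, and in MEFs, at 55.9 to 60.3 CPM against 84.9 to 92.5 CPM. In D387A-set intestines it overlapped, at 33.8 to 59.4 CPM against 43.9 to 53.0 CPM. Mlkl, at 4.78 to 62.6 CPM in D387A-set intestines labelled as lacking it, spanned the 10.9 to 13.9 CPM of the group with intact Mlkl. Counts summed over a gene do not show whether a deleted exon was read, so Mlkl, and Cflar in the D387A set, do not check those labels, and genotypes are used as labelled. The summed level of 10 absorptive enterocyte markers, among them Fabp1, Apoa1 and Lct, was 47912 to 55104 CPM (reads scaled to a common library size) in Mlkl intestines of the D387A set and 3180 to 5513 CPM in 1xDA Cflar Mlkl intestines. It was 40.9 to 63.6 CPM in Mlkl MEFs. In bulk tissue, fewer cells of a type and less RNA per cell cannot be told apart. Each test sets a difference against the spread between libraries of the same group, pooled over all groups of the fit. A standard error is therefore not the spread of the groups compared alone. A member was said to rise or fall when edgeR's quasi-likelihood test gave a Benjamini-Hochberg adjusted p under 0.05 over all genes tested. Most changes called were moderate, and in no comparison did more than 3 of the members that rose, or of those that fell, also pass a log2 fold change of 1 in size.

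The promoters of 3 members are shown because their transcripts moved in different ways in the results that follow. Ndufa6, an accessory subunit of complex I, fell with the larger body of subunits, Cox7a1, the heart and muscle isoform of a complex IV subunit, fell most, and Ndufaf4, an assembly factor of complex I, rose. The stretches run 5′ to 3′ on the strand of the gene, cover 150 bases ending 32 bases before the RefSeq transcript start in GRCm38.p6, and lie at chr15:82354323-82354472 on the minus strand for Ndufa6, at chr7:30183990-30184139 on the plus strand for Cox7a1 and at chr4:24897902-24898051 on the plus strand for Ndufaf4. Capitals mark the letters GCATGCG, on either strand, of the core motif of NRF1, a factor known to activate nuclear genes of the respiratory chain.
Ndufa6: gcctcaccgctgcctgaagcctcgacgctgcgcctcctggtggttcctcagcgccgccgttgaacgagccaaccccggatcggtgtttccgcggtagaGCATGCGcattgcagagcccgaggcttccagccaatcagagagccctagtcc
Cox7a1: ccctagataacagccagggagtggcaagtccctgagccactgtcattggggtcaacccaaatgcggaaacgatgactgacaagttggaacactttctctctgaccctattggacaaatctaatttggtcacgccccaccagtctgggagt
Ndufaf4: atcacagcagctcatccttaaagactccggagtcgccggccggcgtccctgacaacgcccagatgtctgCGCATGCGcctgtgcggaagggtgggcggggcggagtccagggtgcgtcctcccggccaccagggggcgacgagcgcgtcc
On the strand of the gene, GCATGCG starts 83 bases before the start of Ndufa6 and 111 bases before that of Ndufaf4, where an overlapping match on the other strand makes the capitals 1 base longer. The letters do not occur in the stretch of Cox7a1. The first and last of these genes thus share the letters and moved in opposite directions.

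RefSeq promoter windows of 300 bases were found for 74 of the 93 members, with 79 windows in all. The letters GCATGCG occurred on either strand in 13 of the 79 windows (16.5%), against 4.57% of 20150 windows of protein-coding genes. For CCGGAAG, the core bound by ETS factors such as GABPA, the shares were 22.8% and 11.9%. For AAGATGG, bound by YY1, they were 13.9% and 6.3%, and for AAGGTCA, a site of estrogen-related receptors, 10.1% and 3.97%. The ETS and YY1 letters can share bases where they meet. Windows of mitochondrial ribosome genes, 75 in all, held the same motifs in 10.7%, 34.7%, 17.3% and 5.33%. A match of letters is not a bound site, and these shares are descriptions without a test.

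With the 1xDA allele alone, no change of the members was detected against Mlkl intestines. None rose and none fell at adjusted p under 0.05 in edgeR's quasi-likelihood test, and none had an unadjusted p under 0.05. The log2 fold changes of the 87 members had a median of 0.03. Over all 18360 genes tested, 0% rose and 0.00545% fell. DESeq2 and limma-voom also called no member. Sdhb, which carries the iron-sulfur clusters of complex II, was at 279, 269 and 248 RPKM in the 3 1xDA libraries and at 259.9, 249 and 242 RPKM in the Mlkl libraries, and these values overlap. This comparison differs by Mlkl as well as by Casp8, and by title number.

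Transcripts of most members were lower in bulk intestine when cFLIP was lost together with the 1xDA allele. In 1xDA Cflar Mlkl intestines, 61 of 87 members fell and 5 rose against Mlkl, and the median of their log2 fold changes was -0.50. Among all genes 29.5% fell and 29.9% rose, with a median of -0.01. The fall was widespread but moderate, since 3 of the members that fell and 1 of those that rose passed a log2 fold change of 1. In 75 of 87 members the 3 libraries of one group did not overlap those of the other, as in 68.1% of all genes tested.

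Transcripts of complex II, which oxidises succinate, fell for 4 of 4 subunits, with a median of -0.61. Sdhb (chr4:140961203-140979193, plus strand) was at 259.9, 249 and 242 RPKM in Mlkl intestines and at 141, 155 and 143 RPKM in 1xDA Cflar Mlkl intestines. Every 1xDA Cflar Mlkl library was below every Mlkl library, and the log2 fold change was -0.77 ± 0.09 (SE, adjusted p = 7.32e-07, edgeR). Sdha, the flavoprotein that binds succinate, fell by 0.24 on the log2 scale (adjusted p = 0.0191), and this call was lost without Mlkl library 1 or 2 or without 1xDA Cflar Mlkl library 1 or 3. The membrane anchors Sdhc and Sdhd fell by 0.54 and 0.69.

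In complex IV, cytochrome c oxidase, 12 of 12 genes counted as common subunits fell, Cox7a2l among them, with a median of -0.63. Cox4i1 was at 1303, 1258 and 1104 RPKM in Mlkl intestines and at 732, 825 and 707 RPKM in 1xDA Cflar Mlkl intestines, so that it fell by 0.70 ± 0.11 (adjusted p = 4.35e-05). Cox7a2l (chr17:83501918-83517330, minus strand), which helps to join complexes III and IV into supercomplexes, fell from 131, 127 and 124 RPKM to 64.2, 70.8 and 60.4 RPKM. Its log2 fold change of -0.97 ± 0.12 (adjusted p = 2.08e-06) was the largest fall among these 12 genes. Cox5a, which with Cox4i1 caps the catalytic core, had the smallest fall, -0.29 (adjusted p = 0.0371), and lost its call without Mlkl library 1 or 2 or without 1xDA Cflar Mlkl library 1 or 3. Cox6a1, Cox6b1, Cox7a2, Cox7b, Cox8a and Ndufa4 fell by 0.71, 0.57, 0.41, 0.56, 0.50 and 0.71.

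The tissue isoforms of complex IV did not move together. Cox7a1 (chr7:30184144-30186078, plus strand) was at 35.7, 27.4 and 35.1 RPKM in Mlkl intestines and at 9.20, 6.52 and 5.30 RPKM in 1xDA Cflar Mlkl intestines. The groups were far apart, and the log2 fold change of -2.23 ± 0.30 (adjusted p = 5.62e-06) was the largest of any member in this comparison. Ndufa4l2 (chr10:127514967-127517154, plus strand), a paralog of Ndufa4 known to be induced by hypoxia, was at 27.3, 24.3 and 26.2 RPKM and rose to 50.5, 68.4 and 39.4 RPKM. Its log2 fold change was 1.02 ± 0.20 (adjusted p = 0.000296), and its span overlaps that of Shmt2. Cox4i2, the isoform favoured in lung, rose from 9.98, 9.60 and 7.62 RPKM to 12.6, 12.4 and 12.6 RPKM, with a log2 fold change of 0.47 ± 0.18 (adjusted p = 0.0303) that lost its call without Mlkl library 3 or without any 1 of the 1xDA Cflar Mlkl libraries. Cox6b2 fell by 0.50 ± 0.16 (adjusted p = 0.0124), a call lost without Mlkl library 1 or 1xDA Cflar Mlkl library 2. Each isoform was low beside its common partner. Ndufa4l2 went from 6.45% of the level of Ndufa4 in Mlkl intestines to 21.6% (15.1% to 28.4% over libraries), Cox7a1 from 8.83% of Cox7a2 to 2.52%, and Cox4i2 from 0.74% of Cox4i1 to 1.67%.

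Markers of muscle were read beside Cox7a1. The summed level of 8 intestinal smooth muscle markers was 5277 to 5728 CPM in Mlkl and 7220 to 9012 CPM in 1xDA Cflar Mlkl intestines, and 5 of 8 rose and none fell. The 8 skeletal and cardiac muscle markers summed to 82.7 to 98.5 CPM and to 96.9 to 113 CPM, with 4 rising and 4 falling. Of all genes 29.9% rose and 29.5% fell. Brown fat markers summed to 0.473 to 0.850 CPM and to 1.399 to 1.788 CPM. The smooth muscle markers thus moved opposite to Cox7a1, and their part in the result was not tested.

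In complex I, NADH dehydrogenase, 24 of 36 subunits fell and none rose, with a median of -0.49. Of the 7 core subunits, which carry the flavin and the iron-sulfur clusters or shape their path, 5 fell with a median of -0.31, and of the 29 accessory subunits 19 fell with a median of -0.56. Ndufv3 (chr17:31520115-31531331, plus strand), an accessory subunit of the NADH-binding module, fell from 98.2, 87.2 and 76.1 RPKM to 42.8, 49.9 and 37.7 RPKM. The log2 fold change was -1.004 ± 0.11 (adjusted p = 4.22e-07), the largest in the complex. Ndufa6 (chr15:82350140-82354322, minus strand) fell from 452, 429 and 386 RPKM to 224, 237 and 204 RPKM, by 0.93 ± 0.10. Ndufv1, the core subunit that binds NADH, fell by 0.44 (adjusted p = 0.000301). Ndufs1, the largest iron-sulfur subunit, was at 56.5, 56.7 and 54.6 RPKM and at 50.4, 52.0 and 51.6 RPKM. Its groups did not overlap, but the log2 fold change of -0.12 did not pass (adjusted p = 0.23).

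Complex III, which hands electrons from ubiquinol to cytochrome c, had 5 of 8 subunits falling and a median of -0.43. Uqcrh, the hinge protein, fell from 535, 504 and 505 RPKM to 294, 309 and 299 RPKM, by 0.78 ± 0.19 on the log2 scale (adjusted p = 0.00214). Among the core subunits, Uqcrc1 fell by 0.32 (adjusted p = 0.00288), the iron-sulfur protein gene Uqcrfs1 had a log2 fold change of -0.14 (adjusted p = 0.164), and Uqcrc2 was at 180.3, 181 and 175 RPKM in Mlkl and at 178, 188 and 173 RPKM in 1xDA Cflar Mlkl intestines, a log2 fold change of 0.01 ± 0.08 (adjusted p = 0.94).

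In complex V, the ATP synthase, 13 of 14 tested subunits fell, with a median of -0.54. Atp5h (chr11:115415689-115419962, minus strand), a subunit of the stator stalk, fell from 96.9, 94.2 and 78.9 RPKM to 48.0, 57.2 and 54.0 RPKM, by 0.76 ± 0.11 on the log2 scale (adjusted p = 1.19e-05). Of the 5 subunits of F1, the catalytic head with its central stalk, 4 fell, with a median of -0.47. Of the 9 tested subunits of the stator stalk or membrane part 9 fell, with a median of -0.54. In the head, Atp5a1 had a log2 fold change of -0.19 (adjusted p = 0.0493), a call lost without Mlkl library 1 or 2 or without 1xDA Cflar Mlkl library 1 or 3, and with library totals its value turned to 0.024 (adjusted p = 0.8). Atp5b had a log2 fold change of -0.16 (adjusted p = 0.0931). Atp5s fell from 10.7, 9.99 and 12.1 RPKM to 4.86, 4.89 and 5.35 RPKM, by 1.12 ± 0.12.

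Of the 8 complex I assembly factors 3 rose (37.5%, where 29.9% of all genes did), none fell and 5 did not pass, with a median of 0.26 and a lowest value of -0.25. Ndufaf4 (chr4:24898083-24905001, plus strand) was at 6.30, 6.96 and 7.19 RPKM in Mlkl intestines and at 13.2, 13.6 and 12.9 RPKM in 1xDA Cflar Mlkl intestines. These groups did not overlap, and the log2 fold change was 0.95 ± 0.12 (adjusted p = 1.9e-06). Ndufaf2 rose by 0.54 ± 0.13 (adjusted p = 0.00172) and Ndufaf6 by 0.54 ± 0.19 (adjusted p = 0.024). With library totals in place of TMM scaling, which moved the median of all genes from -0.01 to 0.21, 43 members fell and 10 rose, and the median of the members relative to all genes was -0.49, against -0.50 with TMM. The calls of Cox7a2 and Uqcrc1 were among those lost.

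**Figure D1:**
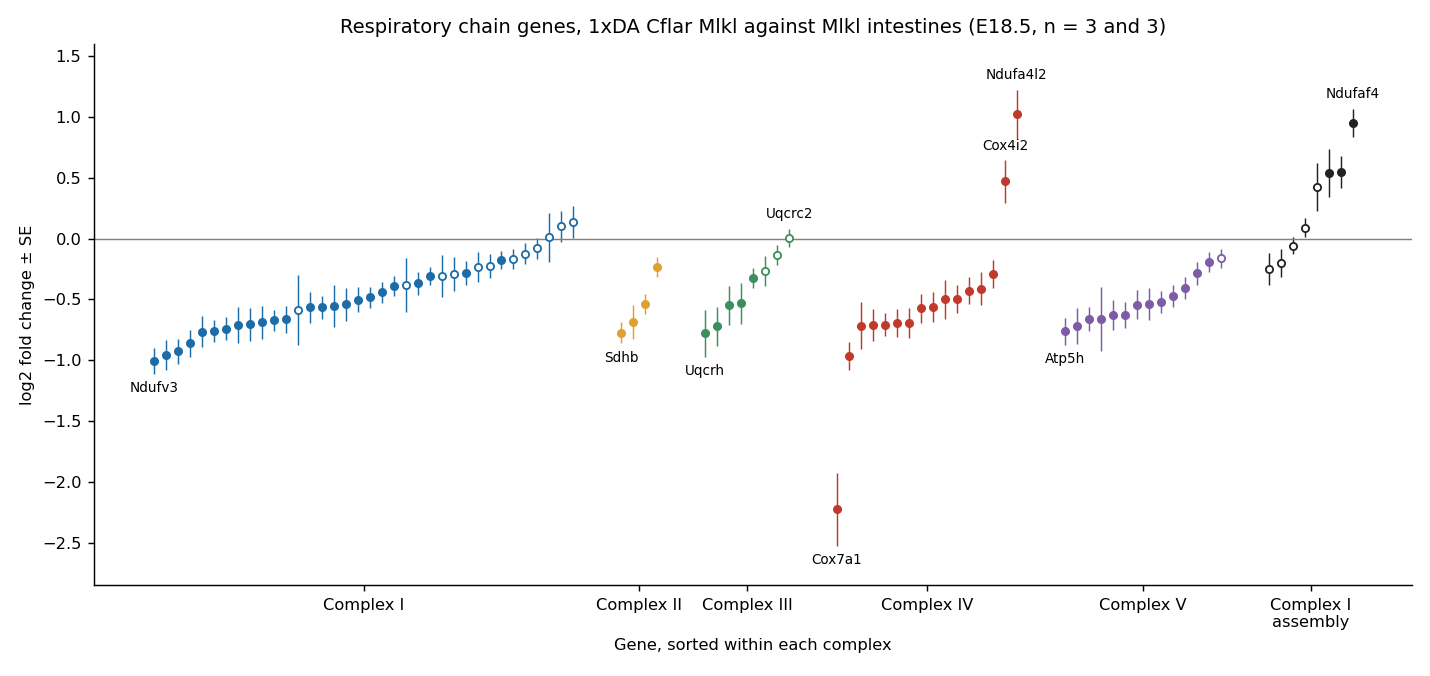
Log2 fold change (vertical axis, bars are the SE) of each tested member in 1xDA Cflar Mlkl compared with Mlkl intestines, grouped by complex and sorted within it; filled points passed the adjusted p threshold. Points of complexes I to V lie mostly below 0, Cox7a1 lies lowest at -2.23, and Ndufa4l2 and Ndufaf4 are the highest at 1.02 and 0.95.

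**Figure D2:**
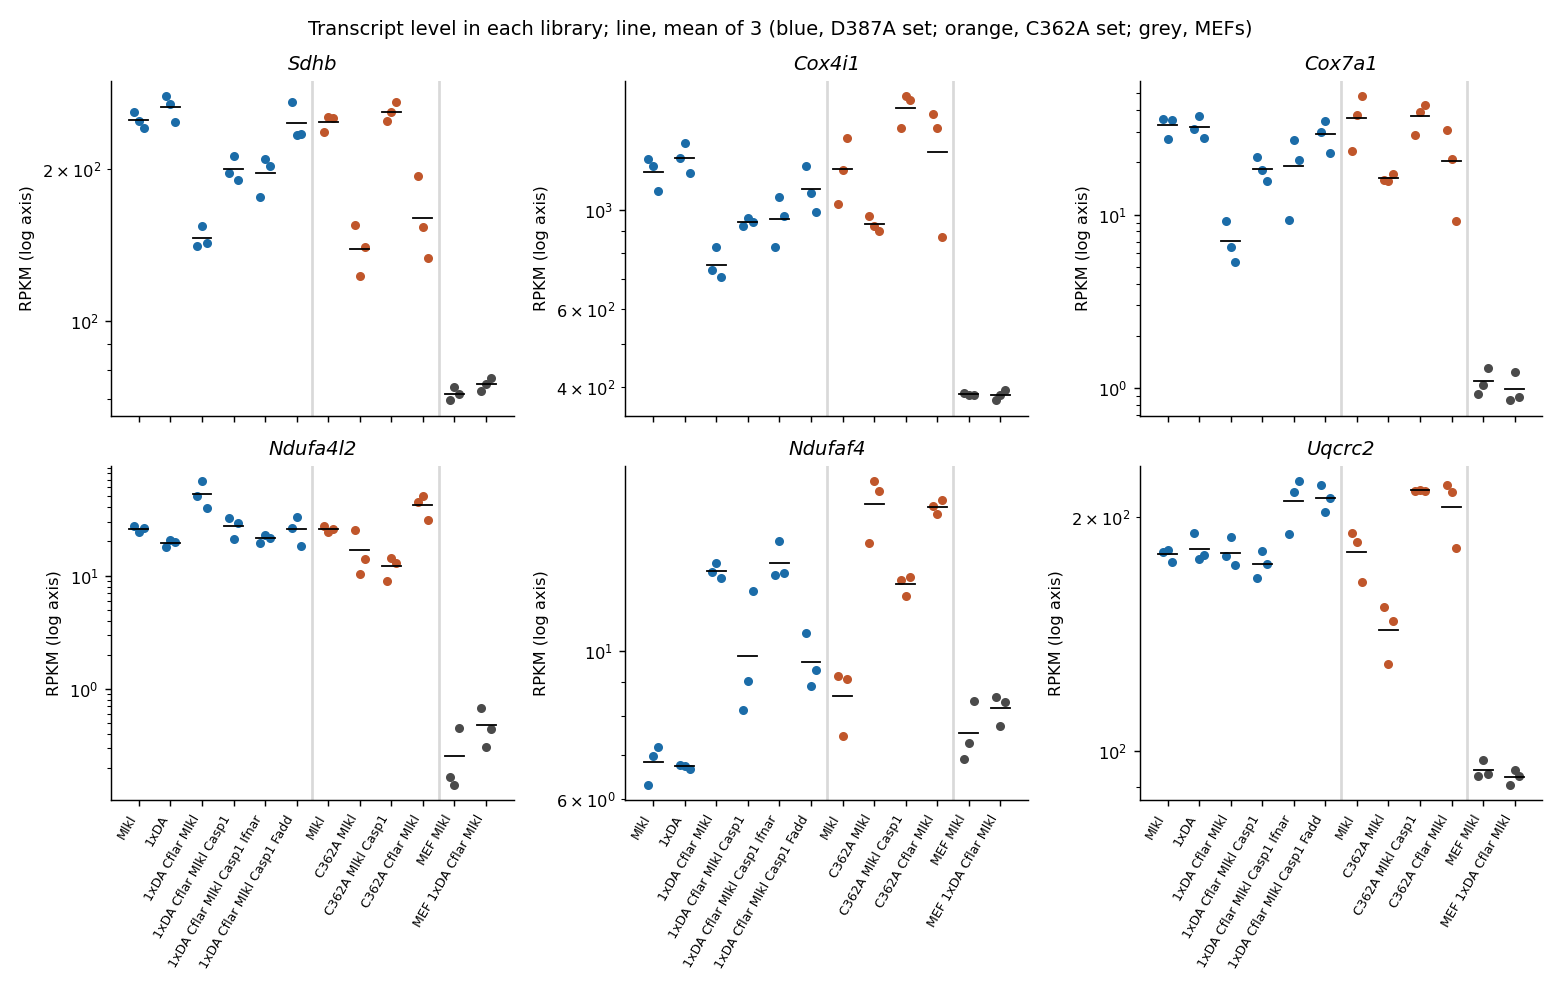
Transcript level in RPKM (vertical log axis) of 6 members in each of the 36 libraries, by group; points are libraries and black lines are means of 3. Sdhb, Cox4i1 and Cox7a1 are lower in 1xDA Cflar Mlkl than in Mlkl intestines, Ndufaf4 and Ndufa4l2 are higher, Uqcrc2 overlaps, and the 2 MEF groups overlap in all 6.

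The other genes of the pathway are from lists named alongside the members. In this comparison 29.9% of all genes rose and 29.5% fell, and the counts of the electron carriers and feeders lie near these shares. Of 13 subunits encoded by mitochondrial DNA, 11 fell and none rose in 1xDA Cflar Mlkl intestines, with a median of -0.99. The largest fall was that of mt-Nd4, a subunit of complex I, by 1.46. These transcripts took 1.96% of reads on genes in Mlkl intestines and 1.02% in 1xDA Cflar Mlkl intestines. The 93 nuclear members took 1.85%, and 1.55% to 1.66% over the 3 libraries. Among the 13, mt-Nd4l was at 2.04, 2.48 and 2.36 RPKM in Mlkl intestines and mt-Nd1 at 7398, 6162 and 5317 RPKM. Whether reads of the low ones were lost to close copies was not tested. Fatty acid oxidation genes fell in 15 of 15 cases with a median of -1.21, led by Acaa2, the thiolase, at -3.46. Tricarboxylic acid cycle genes fell in 6 of 13 cases and rose in 1 (Idh3a, 0.61), with Ogdh at -1.06. Among genes of glycolysis 14 of 15 rose and 1 fell, from Hk2, hexokinase 2, at 3.73 to Pfkm at -0.92. Of 10 hypoxia response genes 8 rose and 2 fell (Adm 3.61, Ndrg1 -1.40), and of 15 genes of the mitochondrial stress response 10 rose and 2 fell (Chac1 3.57, Ddit3 -0.92). Mitochondrial ribosome genes rose in 32 and fell in 7 of 77 cases (Mrps18b 1.02, Mrpl27 -0.56). The other assembly factors had 10 rising and 15 falling of 39 (Cox18 0.86, Cox19 -1.31), and the electron carriers and feeders 5 rising and 6 falling of 18 (Gpd2 1.22, Coq8a -3.26).

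Regulators of nuclear mitochondrial genes were split as well, with 9 of 14 rising and 2 falling, where 29.9% of all genes rose and 29.5% fell. Ppargc1a, the coactivator PGC-1alpha, was at 3.24, 3.49 and 3.02 RPKM in Mlkl intestines and at 1.32, 1.49 and 0.934 RPKM in 1xDA Cflar Mlkl intestines, and fell by 1.38 on the log2 scale (adjusted p = 9.69e-07). Its partner Esrra, the estrogen-related receptor alpha, fell from 148, 136 and 134 RPKM to 69.8, 67.9 and 62.8 RPKM, by 1.06. Neither gene's groups overlapped. Pprc1, a PGC-1-related coactivator, rose by 1.27, Ppargc1b by 0.70, Nrf1 by 0.51, Gabpa by 0.45 and Tfam, the packaging factor of mitochondrial DNA, by 0.39. Absorptive enterocyte markers fell in 10 of 10 cases, with a median of -3.19 and Lct, lactase, at -8.54, and none was at 0 reads in an intestinal group. Among other cell types, macrophage markers rose in 5 and fell in 1 of 6 cases, neutrophil markers rose in 4 and fell in 1 of 5, fibroblast markers rose in 4 of 6, and liver markers fell in 4 of 5. The part of these cell types in the result was not tested.

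With Casp1 also deleted, most of the members called again fell. In 1xDA Cflar Mlkl Casp1 intestines 37 members fell and 1 rose compared with Mlkl intestines, with a median of -0.32, where 11.2% of all genes fell and 10.2% rose. The libraries of 64 of 87 members did not overlap, as in 37.5% of all genes. By complex, 18 of 36 fell in complex I, 2 of 4 in complex II, 2 of 8 in complex III, 9 of 16 in complex IV and 6 of 14 in complex V, and Ndufaf4 was the member that rose, by 0.53 (adjusted p = 0.00424), a call lost in a fit of these 6 libraries alone. Among the members called, the largest falls in complexes I to V were those of Ndufc1 by 0.56, Sdhb by 0.32, Uqcrq by 0.65, Cox7a1 by 0.83 and Atp5h by 0.46. Sdhd had a log2 fold change of -0.39 that did not pass (adjusted p = 0.0544). Cox7a1 was at 21.5, 18.1 and 15.7 RPKM, below every Mlkl library. Enterocyte markers summed to 26429 to 37535 CPM, and 6 of 10 fell. The number of members called was 12 without Mlkl library 1, 19 without Mlkl library 2 and 20 without 1xDA Cflar Mlkl Casp1 library 1, and the calls of Cox7a1 and Sdhb were among those lost without Mlkl library 1. With library totals 13 members fell and 1 rose, with a median of -0.19.

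Compared with 1xDA Cflar Mlkl intestines directly, Casp1 loss raised 19 members and lowered 4, with a median of 0.15, where 24.5% of all genes rose and 22.5% fell. The share that rose among the members was thus near that of all genes. Cox7a1 rose most, by 1.396 ± 0.30 (adjusted p = 0.00106), from 9.20, 6.52 and 5.30 RPKM. Ndufb11, an accessory subunit of complex I, rose by 0.61, Sdhb by 0.45 and Atp5o by 0.37. Ndufa4l2 fell by 0.95 ± 0.20 (adjusted p = 0.000879), to 32.03, 20.9 and 29.0 RPKM, and Ndufaf2 fell by 0.47. Enterocyte markers rose in 10 of 10 cases, mitochondrial-DNA subunits in 8 of 13 and fatty acid oxidation genes in 14 of 15, while 14 of 15 glycolysis genes and 32 of 77 mitochondrial ribosome genes fell. With library totals 13 members rose and 7 fell.

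Adding the loss of Ifnar, the receptor of type I interferon, gave a mixed pattern. In 1xDA Cflar Mlkl Casp1 Ifnar intestines 27 members fell and 8 rose compared with Mlkl intestines, with a median of -0.12, where 23.6% of all genes fell and 24.7% rose. Ndufv3 fell by 0.92 (adjusted p = 4.13e-06), Cox7a1 by 0.79, Sdhb by 0.35, Atp5h by 0.42 and Uqcrc1 by 0.29. Complex I held 14 that fell and 3 that rose, among them Ndufb6 at 0.52, and 4 of 8 assembly factors rose, with Ndufaf4 at 0.99 ± 0.12 (adjusted p = 4.21e-06) and Ndufaf6 at 0.95. Uqcrc2 rose by 0.23, a call lost without any 1 of the Mlkl libraries or without 1xDA Cflar Mlkl Casp1 Ifnar library 2 or 3. The libraries of this group differed among themselves. Library 1 had 73.2 RPKM of Ndufb8 against 192 and 171 in the other two, 512 RPKM of Atp5e, the epsilon subunit of the ATP synthase, against 1540 and 1227, and 366 RPKM of Uqcrh against 779 and 651.

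Compared with 1xDA Cflar Mlkl Casp1 intestines, Ifnar loss raised 25 members and lowered 1, with a median of 0.17, where 15.5% of all genes rose and 15.1% fell. Ndufb8 rose by 1.13 ± 0.22 (adjusted p = 0.00181), although library 1 of the Ifnar group, at 73.2 RPKM, lay near the 64.6 to 68.0 RPKM of the other group. Ndufaf2 rose by 0.57, Atp5f1 by 0.28 and Uqcrc2 by 0.27, and Ndufv3 fell by 0.50. The number called rested on single libraries, being 41 without library 1 of the Ifnar group, 8 without library 2 and 10 without library 3, and 13 without library 1 or library 2 of 1xDA Cflar Mlkl Casp1. With library totals 15 rose and 3 fell, and in a fit of these 6 libraries alone 3 members were called. Members under 1000 bases had a median of 0.22, as had all protein-coding genes under 1000 bases, and with the trend with gene width subtracted, an alternative added after the data were seen, the median of all members was 0.05.

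With Fadd, the adaptor that binds caspase-8, deleted in addition to Casp1, most members were near the Mlkl level. In 1xDA Cflar Mlkl Casp1 Fadd intestines 9 members fell and 3 rose, with a median of -0.09, where 8.4% of all genes fell and 9.97% rose. Cox7a2l fell by 0.57 ± 0.12 (adjusted p = 0.00289), to 96.8, 83.5 and 77.4 RPKM, below every Mlkl library. Ndufb11 fell by 0.41 and Atp5d by 0.34, while Ndufaf6 rose by 0.70, Ndufaf4 by 0.50 and Uqcrc2 by 0.24. Sdhb was at 272, 234 and 235 RPKM, with a log2 fold change of -0.02, and Cox7a1 at 29.8, 34.4 and 22.7 RPKM, with one of -0.18 (adjusted p = 0.716). Both overlapped the Mlkl libraries. Enterocyte markers summed to 54213 to 59908 CPM, with 3 of 10 rising and 1 falling. The number of members called was 4 and 5 without Mlkl library 1 or 2 and 5 and 6 without library 2 or 3 of the Fadd group, and with library totals 2 rose and 21 fell (upper-quartile scaling, 2 and 16).

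Fadd loss raised 16 members and lowered none compared with 1xDA Cflar Mlkl Casp1 intestines, with a median of 0.23, where 10.5% of all genes rose and 7.35% fell. Ndufa6 rose by 0.46, Sdhb by 0.30, Uqcrq by 0.50, Cox5a by 0.38 and Atp5c1 by 0.28. The count rested on 4 libraries, as 2 members were called without 1xDA Cflar Mlkl Casp1 library 1, 6 without its library 2, 1 without library 1 of the Fadd group and 6 without its library 2. Library totals, which moved the median of all genes by -0.23, gave 1 member that rose and 6 that fell. Upper-quartile factors and a replicate block gave 9 members called each, DESeq2 26 and a fit of these 6 libraries alone 2.

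The C362A set was read against its own Mlkl intestines. In C362A Mlkl intestines 35 members fell and 4 rose, with a median of -0.33, where 19.7% of all genes fell and 22.4% rose. Transcripts of complex II again fell for 4 of 4 subunits, with a median of -0.74. Sdhb was at 237, 253 and 253 RPKM in Mlkl and at 155, 122.7 and 140 RPKM in C362A Mlkl intestines, with no overlap and a log2 fold change of -0.83 ± 0.14 (adjusted p = 0.000239). Of the complex I core subunits 6 of 7 fell with a median of -0.68, and 3 of 3 core subunits of complex III fell, led by Uqcrc1 at -0.65. The largest falls in complexes I and V were those of Ndufv3 by 0.91 and Atp5a1 by 0.74. In complex IV 2 of 16 fell, with a median of -0.29, the 2 being Cox7a2l at -0.93 and Cox7a1 at -1.16. Cox7a1 went from 23.1, 37.5 and 48.1 RPKM to 15.9, 15.6 and 17.2 RPKM (adjusted p = 0.0129), and its call was lost without Mlkl library 3.

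Ndufaf4 rose in C362A Mlkl intestines from 9.17, 7.46 and 9.09 RPKM to 14.5, 17.98 and 17.4 RPKM, by 0.96 ± 0.11 (adjusted p = 6.82e-06). In all, 4 assembly factors rose and 1, Ndufaf1, fell, by 0.32. The number of members called was 25 without Mlkl library 2 and 22 without C362A Mlkl library 2, and with library totals 20 fell and 6 rose. Fatty acid oxidation genes fell in 14 of 15 cases, tricarboxylic acid cycle genes in 10 of 13, and mitochondrial-DNA subunits in 2 of 13. Ppargc1a and Esrra fell by 0.91 and 0.51 and Pprc1 rose by 1.14. Enterocyte markers summed to 22701 to 28326 CPM against 43385 to 65382 CPM in Mlkl, with 6 of 10 falling.

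On the C362A background most members rose with Casp1 loss. Compared with C362A Mlkl intestines, 66 of 87 members rose and 1 fell in C362A Mlkl Casp1 intestines, with a median of 0.63, where 17.9% of all genes rose and 15.5% fell. In 81 members the libraries did not overlap, as in 53.5% of all genes. With library totals, which moved the median of all genes to -0.30, 28 members were called, 26 that rose and 2 that fell, with a median of 0.35. Complex I had 29 of 36 rising, complex II 3 of 4, complex III 6 of 8, complex IV 11 of 16 and complex V 12 of 14. Uqcrh rose by 1.02, Ndufa6 by 1.00, Cox7a1 by 1.19, Atp5j2 by 0.91, Sdhb by 0.90 and Ndufaf3 by 0.77, and Ndufaf4 fell by 0.40. Sdhb was at 249, 259 and 272 RPKM in C362A Mlkl Casp1 intestines, above every C362A Mlkl library. The calls of Cox7a1 and Ndufaf4 were lost without C362A Mlkl library 2, and that of Cox7a1 also without C362A Mlkl Casp1 library 3. Enterocyte markers rose in 9 of 10 cases, fatty acid oxidation genes in 15 of 15, mitochondrial ribosome genes in 35 of 77 and mitochondrial-DNA subunits in 0 of 13 (edgeR).

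Against Mlkl intestines, C362A Mlkl Casp1 intestines had 19 members that rose and 4 that fell, with a median of 0.34, where 19% of all genes rose and 17.1% fell. Ndufs4, an accessory subunit of complex I, rose from 52.8, 61.9 and 80.0 RPKM to 111, 124 and 108 RPKM, by 0.82 ± 0.19 (adjusted p = 0.00464). Uqcr10 rose by 0.77, Cox5b by 0.57, Atp5k by 0.71 and Ndufaf6 by 1.05. Ndufs1 fell by 0.44, Sdha by 0.53 and Ndufa4l2 by 1.10. The number called was 9 without Mlkl library 1 or 2, 40 without Mlkl library 3, and 13, 9 and 12 without C362A Mlkl Casp1 libraries 1, 2 and 3. The direction also depended on the scaling, with 10 rising and 9 falling by upper-quartile scaling and 9 and 10 by library totals. A fit of these 6 libraries alone and a fit with the controls of both sets pooled each called 40 members.

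In C362A Cflar Mlkl intestines the members were divided, with 16 falling, 10 rising and a median of 0.04 compared with Mlkl, where 24.9% of all genes fell and 27.9% rose. Complex II had 3 of 4 falling and a median of -0.58, with Sdha at -0.80 ± 0.18 (adjusted p = 0.0021). Ndufab1, the mitochondrial acyl carrier protein, fell by 0.84, Atp5d by 0.54 and Uqcrc1 by 0.49, and Cox7a1 fell by 0.84 (adjusted p = 0.0481), a call lost without library 2 or 3 of either group. Ndufb6 rose by 0.68 and Ndufa4l2 by 0.70, the latter a call lost without any 1 of the Mlkl libraries or without C362A Cflar Mlkl library 1 or 2. Of 8 assembly factors 4 rose, with Ndufaf6 at 1.15 ± 0.18 (adjusted p = 8.86e-05) and Ndufaf4 from 9.17, 7.46 and 9.09 RPKM to 16.5, 16.1 and 16.8 RPKM. Ndufa4l2 reached 11.9% of the level of Ndufa4, against 7.44% in Mlkl intestines.

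The 3 C362A Cflar Mlkl libraries did not hold together. Cox4i1 was at 1648 and 1533 RPKM in libraries 1 and 2 and at 871 RPKM in library 3, Uqcrh at 756, 696 and 313 RPKM, and Cox7a1 at 30.7, 20.8 and 9.22 RPKM. The number of members called was 16 without Mlkl library 2 and 17 without C362A Cflar Mlkl library 2, leaving out single libraries moved the median between -0.12 and 0.18, and library totals gave 29 members that rose and 5 that fell. The 13 mitochondrial-DNA subunits all fell, with a median of -1.15 from mt-Co2 at -1.04 to mt-Atp8 at -1.93. They took 0.987% of reads against 2.01%. The level of mt-Atp8 was low, at 9.74, 4.89 and 3.85 RPKM in Mlkl and at 1.78, 0.906 and 2.15 RPKM in C362A Cflar Mlkl intestines. Fatty acid oxidation genes fell in 14 of 15 cases (Acaa2 -3.34, Acadl -0.44), glycolysis genes rose in 11 of 15 and fell in 1 (Slc16a3 2.68, Pfkm -1.34), and mitochondrial ribosome genes rose in 57 of 77 (Mrpl13 1.46). Among the regulators Ppargc1a fell by 0.93, Esrra by 0.81, Pprc1 rose by 1.19, Tfam by 0.46 and Nrf1 by 0.30, while Gabpa at 0.11 and Ppargc1b at 0.27 did not pass. Enterocyte markers summed to 4527 to 12411 CPM, with 9 of 10 falling.

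Compared with C362A Mlkl, Cflar loss raised 13 members and lowered none, with a median of 0.35, where 6.95% of all genes rose and 12.4% fell. Ndufa4l2 rose by 1.34 ± 0.27 (adjusted p = 0.00386), from 25.4, 10.4 and 14.1 RPKM to 44.8, 50.4 and 30.96 RPKM. Uqcrc2 rose by 0.52, Atp5c1 by 0.50, Ndufs5 by 0.61 and Ndufaf7 by 0.45. The count was 56 without C362A Cflar Mlkl library 3, 3 without its library 1 or 2, and 7, 4 and 2 without C362A Mlkl libraries 1, 2 and 3. Library totals gave 37 members called, no filter on low counts 27, DESeq2 21, a replicate block 6 and a fit of these 6 libraries alone 5.

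**Figure D3:**
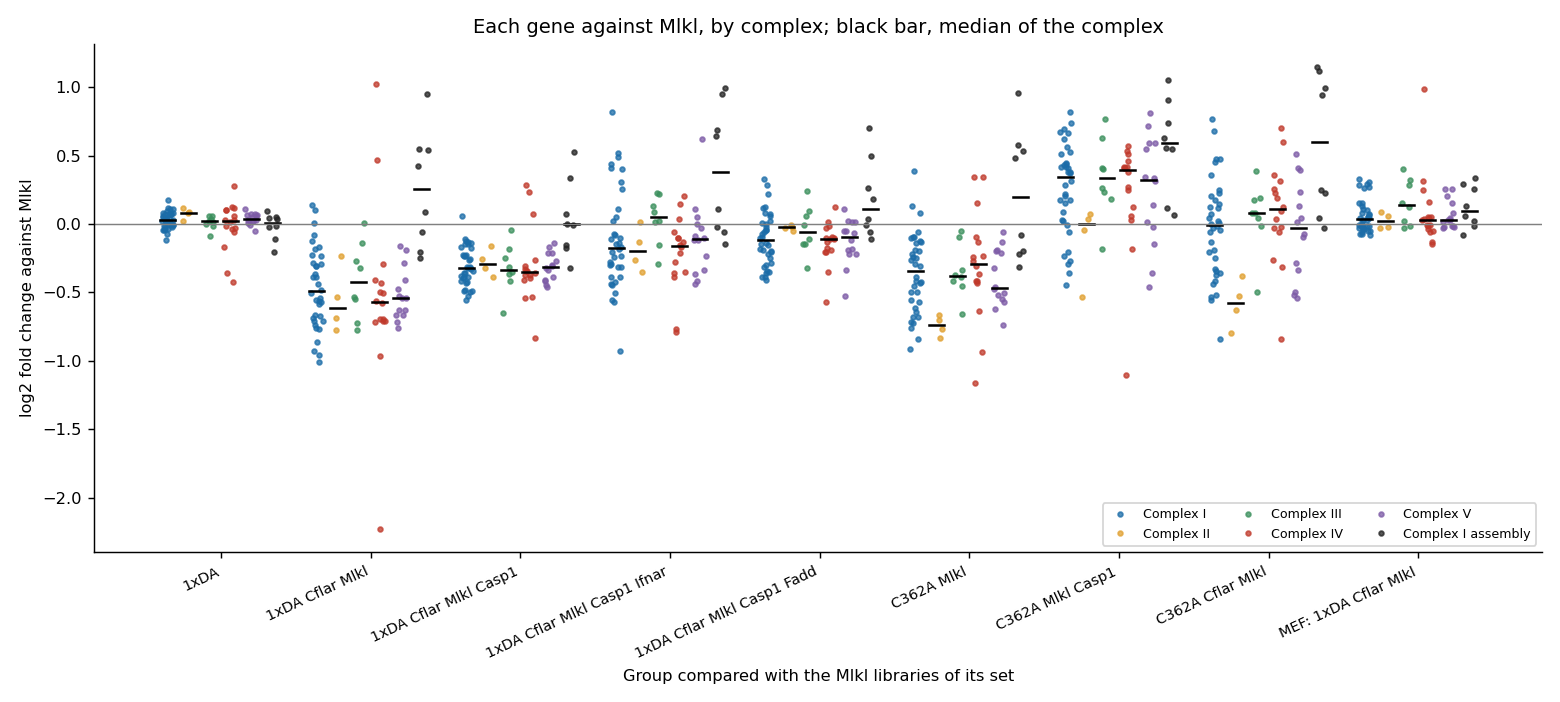
Log2 fold change against the Mlkl libraries of the same set (vertical axis) for each tested member, in the 9 groups compared with Mlkl; colours are complexes and black bars are medians of a complex. The points of 1xDA and of the MEFs lie around 0, the medians of complexes I to V are between -0.61 and -0.43 in 1xDA Cflar Mlkl, that of complex II is lowest in C362A Mlkl at -0.74, and the median of the assembly factors is 0.60 in C362A Cflar Mlkl.

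Read across the 7 comparisons of a cFLIP- or C362A-altered intestine with Mlkl, 68 members fell in at least 1, 23 rose in at least 1, 10 of these did both, and 12 were called in none, of which 6 had too few reads to be tested. Of the 18196 genes tested in both sets 45% fell in at least 1, 48.3% rose in at least 1, 8.71% did both and 15.3% were called in none. The comparisons of a set share their Mlkl libraries. Ndufaf4 had log2 fold changes of 0.95, 0.53, 0.99 and 0.50 in the 1xDA Cflar Mlkl groups without further deletion, with Casp1, with Casp1 and Ifnar and with Casp1 and Fadd, and of 0.96, 0.56 and 0.94 in C362A Mlkl, C362A Mlkl Casp1 and C362A Cflar Mlkl. Each of these passed. Those of Sdhb in the same order were -0.77, -0.32, -0.35, -0.02, -0.83, 0.07 and -0.63, and those of Cox7a1 were -2.23, -0.83, -0.79, -0.18, -1.16, 0.03 and -0.84. For both genes the values for 1xDA Cflar Mlkl Casp1 Fadd and for C362A Mlkl Casp1 did not pass and the others did.

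Many members are short, and gene length moved with several of these comparisons. The gene width in the files was under 1000 bases for 50 of 93 members, and the median was 934 bases against 3242.5 for all protein-coding genes tested. In C362A Mlkl Casp1 compared with Mlkl intestines, the log2 fold change fell with width both over the members (Spearman rho -0.40, n = 87) and over all protein-coding genes (rho -0.35). These genes share the same libraries, so the rho is a description. There, protein-coding genes under 1000 bases had a median of 0.46, and when the trend with width was subtracted, the median of the members was -0.0001. The same subtraction moved the median from 0.63 to 0.43 for Casp1 loss in C362A Mlkl, from 0.04 to -0.27 for C362A Cflar Mlkl and from -0.50 to -0.52 for 1xDA Cflar Mlkl. It also moved the median from 0.17 to 0.05 for Ifnar loss, from -0.12 to -0.21 for 1xDA Cflar Mlkl Casp1 Ifnar, from 0.35 to 0.22 for Cflar loss in C362A Mlkl and from -0.33 to -0.47 for C362A Mlkl. Thus the median fall in 1xDA Cflar Mlkl was as large after the subtraction, and the median rise in C362A Mlkl Casp1 was not there.

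**Figure D4:**
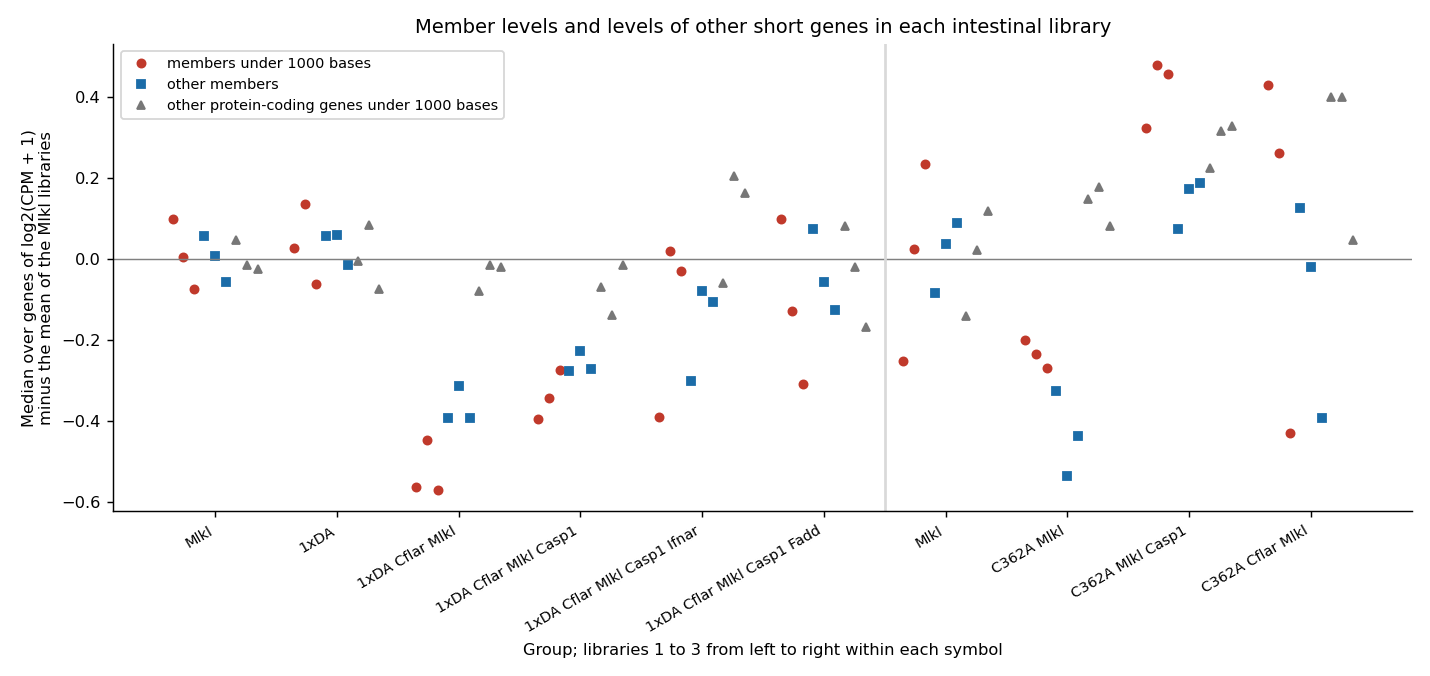
Median over genes of log2(CPM + 1) minus the mean of the Mlkl libraries of the set (vertical axis), for each intestinal library; circles are members under 1000 bases, squares are the other members and triangles are other protein-coding genes under 1000 bases. In C362A Cflar Mlkl the triangles sit at 0.40, 0.40 and 0.047 in libraries 1, 2 and 3, and in 1xDA Cflar Mlkl they lie between -0.078 and -0.015 while both kinds of members lie lower.

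The effect of Cflar loss with an altered Casp8 was compared between the D387A and C362A sets as an interaction over 30 intestines. No member passed (edgeR), where 0.0509% of all genes were higher and 0.0764% lower in the D387A set, although 54 members had an unadjusted p under 0.05 and DESeq2 called 15. The median difference of log2 fold changes was -0.48, and -0.18 after the trend with width was subtracted. Without library 3 of C362A Cflar Mlkl 54 members passed, and without library 3 of the C362A Mlkl-/- controls 36 did. Such a count does not show that the members acted alike in both sets.

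The effect of Casp1 loss differed in more members. The difference between the sets passed for 16 members, of which 15 were lower and 1 was higher in the D387A set. Of all genes 6.03% were lower and 10.9% higher. The median difference over the members was -0.466, and -0.255 after the trend with width was subtracted. Complex III held Uqcrfs1 at -0.62 (adjusted p = 0.00416) and Uqcrc2 at -0.62 (adjusted p = 0.00174), complex V held Atp5b at -0.48 (adjusted p = 0.035), and the member higher in the D387A set was Cox7c at 1.10 ± 0.33 (adjusted p = 0.0217), whose few reads and overlap with Gm22574 make it uncertain. The count was 6 to 8 without any 1 of 7 libraries, namely 1xDA Cflar Mlkl library 2 (7), 1xDA Cflar Mlkl Casp1 libraries 1 and 2 (8 each), C362A Mlkl libraries 2 (6) and 3 (8), and C362A Mlkl Casp1 libraries 2 (6) and 3 (8). The 2 backgrounds also differed in Cflar, which was absent only in the D387A arm, so the allele and cFLIP cannot be told apart, and with library totals 1 member was higher and 4 lower.

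No change of the members was detected in MEFs with the 1xDA Cflar Mlkl genotype. In 1xDA Cflar Mlkl compared with Mlkl MEFs none of 88 members rose and none fell (edgeR), 7 had an unadjusted p under 0.05, and the median was 0.03. Of 15465 genes 0.097% rose and 0.0129% fell, and limma-voom and DESeq2 also called no member. Sdhb was at 69.7, 74.2 and 71.7 RPKM in Mlkl and at 72.8, 74.9 and 77.2 RPKM in 1xDA Cflar Mlkl MEFs, and Ndufaf4 at 6.89, 7.28 and 8.42 RPKM and at 8.55, 7.72 and 8.38 RPKM. Both overlapped. Cox7a1 was near the bottom of the measured range, from 0.852 to 1.31 RPKM over the 6 libraries. The members took 0.633% and 0.654% of reads and the mitochondrial-DNA subunits 0.508% and 0.482%.

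The effect of 1xDA Cflar Mlkl itself differed between intestine and MEFs. In the interaction over 24 libraries 54 of 88 members were lower and 2 higher in the intestine, with a median difference of -0.52, where 16.9% of all genes were lower and 21.5% higher. Complex I had 23 of 36 lower, complex II 3 of 4, complex III 5 of 8, complex IV 10 of 17 and complex V 11 of 14. The differences were -2.08 for Cox7a1 (adjusted p = 0.00477), -0.93 for Cox7a2l, -0.81 for Sdhb (adjusted p = 3.63e-06), -0.66 for Cox4i1, -0.51 for Cox5a, -0.48 for Ndufv1 and -0.32 for Uqcrc1. Ndufaf4 at 0.85 (adjusted p = 0.000276) and Ndufaf2 at 0.51 (adjusted p = 0.0274) were the members higher in the intestine. The embryos also differed in age, and the MEFs were cultured cells. By the study's methods, the MEF libraries were made with another kit than those of the intestines. Tissue therefore cannot be told apart from age, culture or kit.

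**Figure D5:**
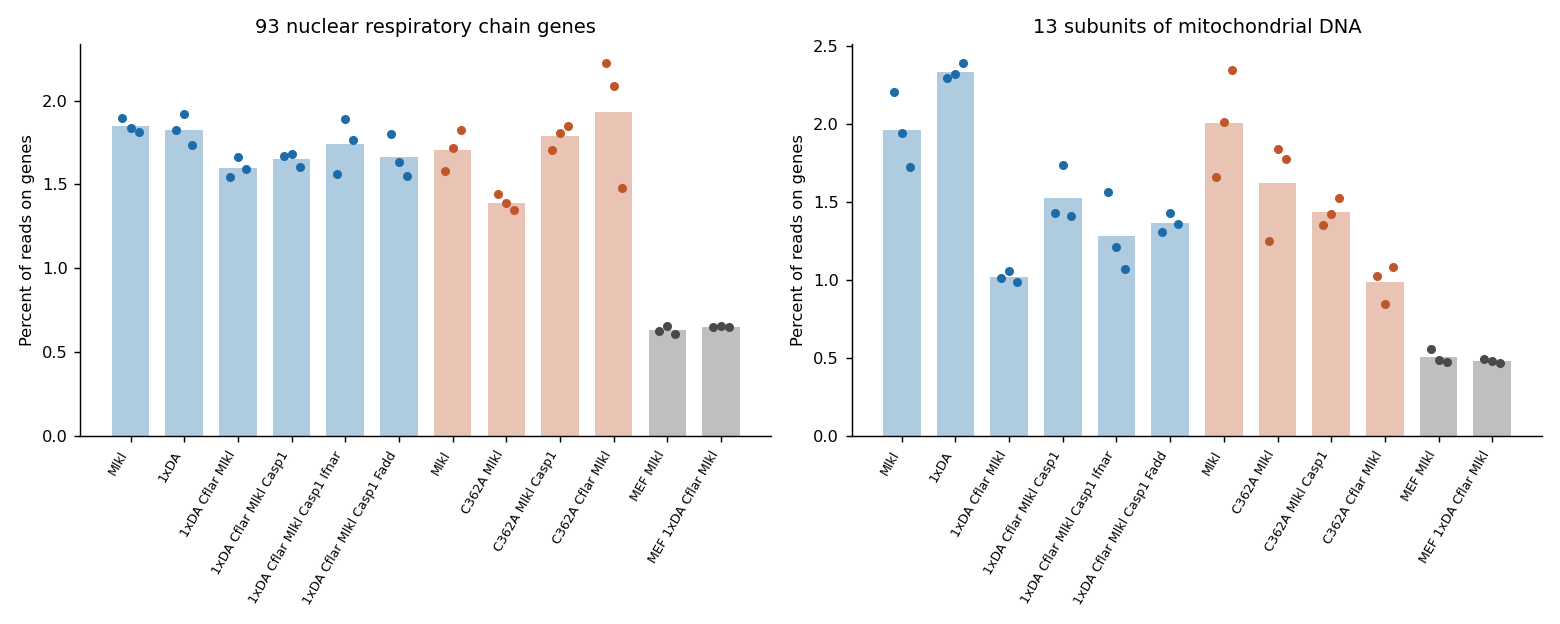
Percent of reads on genes (vertical axis, from 0) taken by the 93 nuclear members (left) and by the 13 subunits encoded by mitochondrial DNA (right); bars are means of 3 and points are libraries. The mitochondrial share is lowest among intestines in C362A Cflar Mlkl and 1xDA Cflar Mlkl, at 0.987% and 1.02%, and the nuclear share in intestines ranges from 1.39% in C362A Mlkl to 1.93% in C362A Cflar Mlkl.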

How the data were processed

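Alignment to GRCm38 was done by the authors with GSNAP, and they counted uniquely aligned reads on exons for each Ensembl gene. The counting program, the annotation version and the strand setting are not given in the sources used here, and the labels and the study's methods name different library kits. Each deposited file holds raw counts, a gene width and RPKM, which the authors computed against a library total larger than the sum of the counts. The deposited RPKM were not used for tests. The members and all gene lists were chosen with earlier results of these data known. Tests used edgeR 4.0.16 in R 4.3.3 on the deposited counts, with 1 quasi-likelihood fit to each set over all its groups, TMM factors, filterByExpr (minimum count 10, total 15), a prior count of 0.125 for fold changes, and Benjamini-Hochberg adjustment over all genes tested. Standard errors were derived from the fold change and its F statistic. Interactions used joint fits of 30 intestines, or of 24 libraries for intestine and MEFs. With 3 libraries against 3, an exact permutation test of 1 value cannot go below p = 0.1 (two-sided), and none was used. Isoform pairs and catalytic subunits were named, as was, in each comparison, the member of each complex and of the assembly factors with the largest rise or fall among those called whose groups did not overlap. Of the other lists, the largest rise and fall in 1xDA Cflar Mlkl and C362A Cflar Mlkl and 6 regulators were named. Sdhc, Sdhd, Atp5s, Atp5e, Cox7c, Ndufb4, mt-Co2, Acadl and Pprc1, and members named in comparisons where this did not pick them, were chosen after their values were seen. The fits were tested on simulated counts. Limma 3.58.1 (voom) and DESeq2 1.42.0 were alternatives, as were other scaling factors, filters, a replicate block, fits of only the groups compared, pooled controls and fits without each library. Promoter windows were those of RefSeq. No library was a copy of another.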

Additional observations from a re-analysis of the deposited data

Results flagged for a closer look

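The effect of Casp1 loss differed between the D387A and C362A sets by an interaction test in edgeR, with 1 member higher and 15 lower in the D387A set, where 10.9% of all genes were higher and 6.03% lower. With library totals 5 members passed, and 6 to 8 without any 1 of 7 libraries. Among the members that passed were Uqcrfs1, with a difference of log2 fold changes of -0.62, and Atp5b, with -0.48. The difference of Atp5b lost its call with library totals, without the filter on low counts and without any 1 of 9 libraries.

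The effect of the 1xDA Cflar Mlkl genotype differed between intestine and MEFs by the same kind of test, with 2 members higher and 54 lower in the intestine, where 21.5% of all genes were higher and 16.9% lower. The differences of log2 fold changes were -0.48 for Ndufv1, -0.81 for Sdhb, -0.32 for Uqcrc1, -0.66 for Cox4i1, -0.51 for Cox5a, -0.93 for Cox7a2l and -2.08 for Cox7a1.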

How the results depend on the processing

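With library totals in place of TMM factors, the median of the members became -0.284 in 1xDA Cflar Mlkl, -0.194 in 1xDA Cflar Mlkl Casp1 (14 members called), 0.064 for Casp1 loss and 0.033 for Fadd loss (7 called) in the D387A set, 0.354 for Casp1 loss in the C362A set (28 called), -0.299 for the difference in Casp1 loss between sets (5 called) and -0.351 for the difference between intestine and MEFs. It gave 23 calls in 1xDA Cflar Mlkl Casp1 Fadd and 37 for Cflar loss in the C362A set, and turned Atp5a1 in 1xDA Cflar Mlkl to 0.024 (adjusted p = 0.8). For Fadd loss, upper-quartile factors gave 9 calls, DESeq2 26, a replicate block 9 and a fit of the groups compared 2. For Cflar loss in the C362A set, no filter gave 27, DESeq2 21, a replicate block 6 and a fit of the groups compared 5. A fit of the groups compared gave 3 calls for Ifnar loss and 40 in C362A Mlkl Casp1, where pooled controls also gave 40. For the difference in the Cflar Mlkl effect between sets, no filter gave 1 call and DESeq2 15. Subtracting the trend with gene width, added after the data were seen, gave medians of -0.0001 in C362A Mlkl Casp1, 0.432 for Casp1 loss in the C362A set, -0.0005 in MEFs, and -0.176 and -0.255 for the differences in the Cflar Mlkl and Casp1 loss effects between sets. The cause of these shifts was not tested.

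Leaving out single libraries moved the number of members called from 57 to 68 in 1xDA Cflar Mlkl (median -0.545 to -0.448), 12 to 34 in 1xDA Cflar Mlkl Casp1 (-0.356 to -0.272), 26 to 39 with Ifnar (-0.176 to -0.049) and 4 to 16 with Fadd (-0.185 to -0.013). The ranges were 18 to 23 for Casp1 loss (0.121 to 0.185), 8 to 41 for Ifnar loss (0.094 to 0.256) and 1 to 20 for Fadd loss (0.133 to 0.293). In the C362A set they were 22 to 39 in C362A Mlkl (-0.462 to -0.211), 9 to 40 in C362A Mlkl Casp1 (0.202 to 0.437), 16 to 39 in C362A Cflar Mlkl (-0.115 to 0.181), 45 to 58 for Casp1 loss (0.609 to 0.687) and 2 to 56 for Cflar loss (0.207 to 0.516). Between contexts they were 0 to 54 for the Cflar Mlkl effect (-0.667 to -0.328), 6 to 18 for Casp1 loss (-0.493 to -0.413) and 45 to 57 for intestine and MEFs (-0.596 to -0.484). The medians in 1xDA intestines and in MEFs were -0.007 to 0.078 and 0.015 to 0.054, with 0 calls throughout.

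The replicate numbers did not pair the samples. Deviations of same-numbered libraries correlated at -0.51 to 0.381, and all 3 exceeded 0.1 in 2 of 22 pairs of groups, so the replicate block is given only as an alternative.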
